A study of Homo sapiens with 18 samples.

Results

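Binding of the leukaemia fusion protein AML1-ETO was mapped in Kasumi-1 cells. A total of 3639 genomic regions were called with the anti-Flag antibody in control cells and in no other list of sites. They were chosen by merging the 4 lists of peaks that the authors made for single antibodies, wherever peaks overlapped by at least 1 bp, and by keeping the regions made only of control anti-Flag peaks. This choice left 3639 of 35622 merged regions (10.2%), each made of a single peak. It kept 3639 of the 23162 control anti-Flag peaks (15.7%).

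Kasumi-1 is an established human acute myeloid leukaemia line with the t(8;21) translocation, and the cells used here carried Flag-tagged AML1-ETO. They were transduced as control or for knockdown (KD) of the microRNA miR-130a, and viable GFP+ cells were sorted 3 days later, 200000 per condition. The 18 CUT&RUN libraries form 6 groups of 3: control anti-ETO, control anti-Flag, control mouse IgG, and the same 3 antibodies after knockdown. The model is 1 cell line with a tagged fusion protein, and the labels do not say whether the replicates came from separate transductions.

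AML1-ETO joins the DNA-binding Runt domain of RUNX1 to most of ETO (RUNX1T1), which recruits NCoR and histone deacetylase corepressors, and it binds DNA at RUNX motifs together with other blood transcription factors. In CUT&RUN an antibody tethers a nuclease to chromatin in permeabilised cells and the released fragments are sequenced, so that a peak marks where fragments pile up. The anti-ETO antibody can see the fusion and ETO itself, whereas the anti-Flag antibody is directed at the tag. The series' title links miR-130a to TBL1XR1, a subunit of the NCoR complex.

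Each list gives chromosome, start and end, and no height, score or library. Depth behind a call is therefore unknown, the spread over the 3 libraries of a group could not be computed, and no IgG list was used here. The lists held 14264 control anti-ETO, 23162 control anti-Flag, 22594 knockdown anti-ETO and 25961 knockdown anti-Flag peaks. Single regions do not stand in for replicate libraries. The 95% Wilson intervals of shares and Newcombe intervals of differences below cover counting error only, and no test over samples was possible. Whether an absent call reflects less binding or a signal just under the caller's threshold cannot be told apart from positions. By the choice, each control-Flag-only region also lacks a control anti-ETO call, and whether the fusion bound there was not tested.

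The promoters of 2 genes from the lists of leukaemia-related genes lay partly under such a region, and both are shown because they place the control-only call at the start of a gene with a known role. The first belongs to CDKN1A, which encodes the cyclin-dependent kinase inhibitor p21, and the second to BID, which encodes a BH3-only protein that carries death signals to mitochondria. Each sequence is RefSeq GRCh38.p14 from 250 bases before a gene start to the first 10 bases of the transcript, written 5′ to 3′ along the gene's strand. Capitals mark the bases inside the control-Flag-only region.
CDKN1A, chr6:36678464-36678723, plus strand: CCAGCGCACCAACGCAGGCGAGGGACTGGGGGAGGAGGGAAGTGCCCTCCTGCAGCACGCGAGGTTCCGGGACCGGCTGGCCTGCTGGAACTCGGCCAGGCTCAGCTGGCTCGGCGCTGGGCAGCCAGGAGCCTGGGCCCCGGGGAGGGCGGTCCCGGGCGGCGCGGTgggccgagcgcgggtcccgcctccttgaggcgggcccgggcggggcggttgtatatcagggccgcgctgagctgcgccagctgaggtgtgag
BID, chr22:17774656-17774915, minus strand: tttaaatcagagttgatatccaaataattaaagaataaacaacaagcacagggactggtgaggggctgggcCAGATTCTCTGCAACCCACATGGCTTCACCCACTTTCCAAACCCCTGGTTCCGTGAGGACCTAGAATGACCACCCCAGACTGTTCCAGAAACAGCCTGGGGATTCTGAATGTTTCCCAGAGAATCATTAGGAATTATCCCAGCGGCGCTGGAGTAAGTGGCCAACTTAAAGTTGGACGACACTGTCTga

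At CDKN1A the region spanned chr6:36678400-36678631 (232 bp) and covered 168 of the 260 bases shown, all upstream of the start. The GC content of these 260 bases was 75.8%. At BID the region spanned chr22:17774658-17774844 (187 bp) and lay wholly within the stretch shown, reaching past the start, and the 260 bases had a GC content of 47.7%. Neither stretch held the RUNX core motif TGTGGT on either strand. The nearest peak of another list was 1974 bp away at CDKN1A (knockdown anti-ETO) and 586 bp away at BID (control anti-ETO).

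A further 3 promoters, all of protein-coding genes, are shown because they held the RUNX core motif inside the control-Flag-only region. This motif is TGTGGT or its reverse complement ACCACA. Windows of the long noncoding RNA genes LOC124904412, DNAH10OS, LOC124904886 and PRORP-PSMA6 also held a match there, and these genes were left out of the display. TLE3 encodes a Groucho-family corepressor that RUNX proteins can recruit, PRORP the protein-only RNase P of mitochondria, and UQCR10 a subunit of respiratory complex III. Capitals here mark the motif.
TLE3, chr15:70094780-70095039, minus strand: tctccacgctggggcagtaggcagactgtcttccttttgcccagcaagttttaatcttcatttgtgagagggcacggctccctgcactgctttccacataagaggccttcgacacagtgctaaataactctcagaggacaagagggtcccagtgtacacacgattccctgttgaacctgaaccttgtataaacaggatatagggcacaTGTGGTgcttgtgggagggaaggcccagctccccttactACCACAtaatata
PRORP, chr14:35121730-35121789, plus strand: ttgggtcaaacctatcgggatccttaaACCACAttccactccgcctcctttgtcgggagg
UQCR10, chr22:29767240-29767299, plus strand: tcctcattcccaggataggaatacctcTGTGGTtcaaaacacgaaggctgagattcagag

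The TLE3 promoter was covered over its whole length by a region of 536 bp (chr15:70094659-70095194) and held 2 matches, which began 42 and 3 bases before the start. The PRORP match began 82 bases and the UQCR10 match 102 bases before the start. The regions there were 211 and 170 bp wide. At PRORP a control anti-ETO peak lay 339 bp and a knockdown anti-ETO peak 343 bp away, and the nearest knockdown anti-Flag peak was 74798 bp away. At UQCR10 a knockdown anti-ETO peak lay 263 bp away, whereas the nearest control anti-ETO and knockdown anti-Flag peaks were 115522 and 115526 bp away. At TLE3 a control anti-ETO peak lay 867 bp and peaks of both knockdown lists 868 bp away.

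Few of the covered promoters held such a match. Promoter windows of 300 bases (250 before and 50 after a RefSeq start) counted as covered where at least 150 bases lay in a region. By this count 105 windows of 96 genes, 73 protein-coding and 23 for long noncoding RNA, were covered by 87 control-Flag-only regions, and 22 windows lay wholly inside. Some windows repeat or overlap: PRORP and PRORP-PSMA6 share an identical window, so its motif match counts for both. The intervals of window shares here and below treat each window as separate and are thus too narrow. TGTGGT occurred on either strand in 10 of the 105 windows (9.52%, 5.26 to 16.6), against 4569 of all 34961 windows (13.1%), and in 7 of the 10 the match was inside the region. With TGCGGT also allowed the numbers were 14 of 105 (13.3%, 8.11 to 21.1) and 19.6% of all windows. For TGTGGT alone, the share was 22.7% (12.8 to 37.0) of 44 windows under knockdown-Flag-only regions. It was 35.7% (16.3 to 61.2) of 14 under regions called by Flag in both conditions only. Under knockdown-ETO-only regions it was 7.18% of 362, under control-ETO-only regions 9.52% of 63, and under regions called in all 4 lists 10.8% of 4544. These differences were not tested. The interval of the control-Flag-only TGTGGT share holds the value for all promoters, and these few windows say nothing of the regions away from promoters.

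The other motifs searched, each on both strands and free to overlap another, were also near their frequency in all promoters. The ETS motif GGAAGT was in 28.6% (20.8 to 37.8) of the 105 windows and 22.8% of all, and the E-box CAGNTG in 50.5% (41.1 to 59.9) and 49.9%. AGATAA, a motif of GATA factors, was in 6.67% and 10.3%. TGANTCA, the motif of AP-1, was in 4.76% and 7.68%, and TTGCNNAA, a motif of CEBP factors, in 8.57% and 10.4%. All 5 intervals held the value for all promoters.

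The covered promoters were moderately rich in CpG. Their median GC content was 61.0%, against 58.7% for all windows, 59.3% for the 44 windows under knockdown-Flag-only regions and 68.3% for the 4544 under regions called in all 4 lists. The median ratio of observed to expected CpG was 0.765 in covered windows and 0.580 in all. It was 0.307 under knockdown-Flag-only regions, 0.829 under knockdown-ETO-only regions (362 windows) and 0.851 under regions called in all 4 lists. The ratio was 0.795 under control-ETO-only regions (63 windows) and 0.494 under regions called by Flag in both conditions only (14 windows). By this ratio the control-Flag-only promoters lay closer to those of the ETO calls than to those of the other Flag-only classes. By GC content they lay closer to the other Flag-only classes. Median GC content was 61.5% for Flag in both conditions only, 67% for knockdown ETO only and 64.7% for control ETO only. The ratio varied widely among the covered windows (interquartile range 0.467 to 0.914), and these differences were not tested. Among the windows covered over their whole length were those of BCR (the fusion partner of ABL1 in chronic myeloid leukaemia), CD48 (a surface ligand of the SLAM family), HOXA3 (a homeobox factor), PALB2 (a BRCA2 partner in DNA repair), INPP4A (a phosphoinositide phosphatase) and PIK3IP1 (an inhibitor of PI3-kinase). These 6 names were picked after the values were seen.

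The regions were narrow. Their widths ran from 170 to 1202 bp with a median of 275 bp (interquartile range 200 to 359), whereas the other 19523 control anti-Flag peaks had a median of 459 bp (312 to 774). In all, 907 were under 200 bp, 84 were over 600 bp, and together they covered 1.08 Mb. With the control anti-Flag peaks sorted by width into 5 equal groups, 30.3% of the narrowest group had no other call, then 29.1%, 14.2%, 4.64% and 0.259% of the widest. Of the 2316 widest peaks, 1 was control-Flag-only. Since a wide peak has more chances to overlap another, these widths describe the choice and support nothing further. Regions called by a single list were narrow in each case: the median was 277 bp for knockdown Flag only, 303 bp for knockdown ETO only and 225 bp for control ETO only, against 1056 bp for regions called in all 4 lists.

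**Figure D1:**
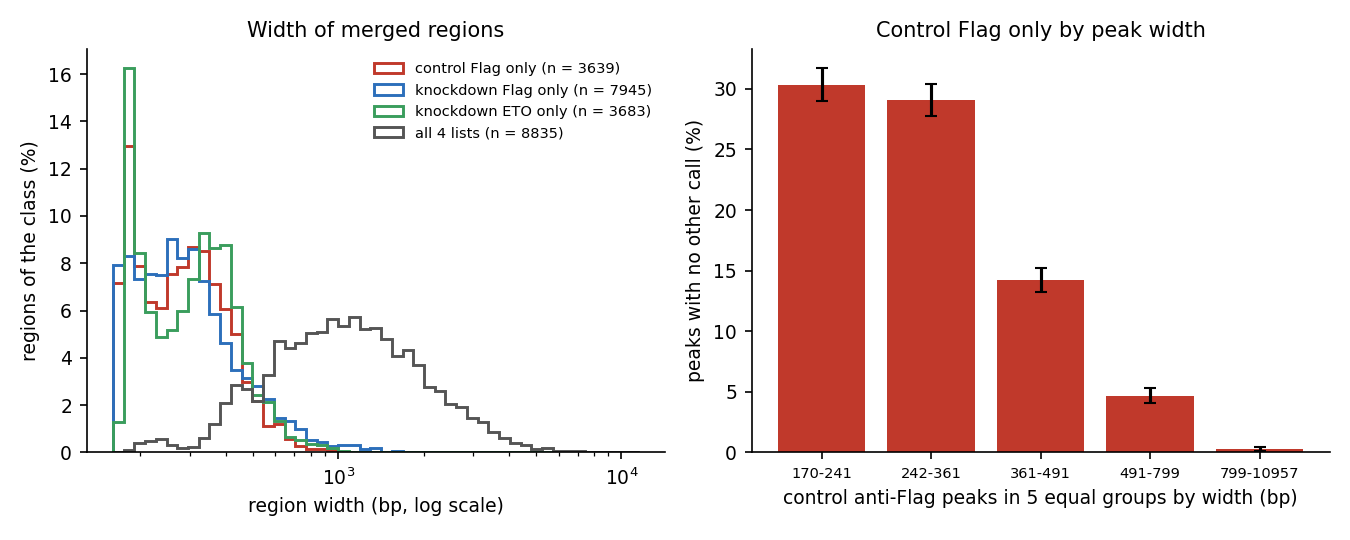
Left, distribution of region width (bp, log scale) as a percentage of the regions of 4 call combinations. Right, percentage of control anti-Flag peaks with no other call in each of 5 equal groups by peak width, with 95% Wilson intervals. The share fell from 30.3% in the narrowest group to 0.259% in the widest.

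The widest region (1202 bp, chr6:26193426-26194627) lay outside genes in a cluster of histone genes, 2157 bp from H3C4 and 250 bp from the next region. The second (1045 bp, chr11:46330228-46331272) lay 1654 bp from DGKZ, a diacylglycerol kinase gene. The third (999 bp, chr19:38675667-38676665) lay in ACTN4, which encodes an actin crosslinker. The other 7 of the 10 widest, 840 to 964 bp, overlapped NOTCH2NLB, MACROD1 with LOC124902685, LOC101928343, HNRNPUL1, MAEA, LINC02356 and GSK3B, the last a kinase of Wnt signalling. NOTCH2NLB belongs to a family of near-identical copies, so short reads placed there are uncertain.

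At the threshold of the choice, a region in KANSL1 (chr17:46192380-46192627) touched a peak of another list with 0 bases between, one in ATAD2B (chr2:23925119-23925540) was 1 bp away and one in NOTCH2 (chr1:120067344-120067681) 2 bp away. In all, 11 regions were within 10 bp of another call and 60 within 50 bp. Just outside, control anti-Flag peaks overlapped another list's peak by 1 bp near DNAJB12 (region chr10:72329010-72329532) and near the retinoic acid receptor gene RARG (chr12:53232420-53232942), and by 3 bp in LOC105371254 (chr1:146231980-146232616). An overlap of 1 to 10 bp was found for 14 control anti-Flag peaks and one of 1 to 50 bp for 120. Regions that a shift of a few bases would move across the threshold were thus a small part of the 3639.

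Fewer of these regions than of all merged regions had a close neighbour: 43.6% had any other region within 1 kb, against 51.8% of all merged regions. Among the other single-list classes the share was 47.4% for knockdown Flag only, 45.8% for knockdown ETO only and 38.2% for control ETO only. It was 61.4% for regions called in all 4 lists. For control-Flag-only regions the median gap to the nearest region of another call combination was 1696 bp, and 1482 (40.7%, 39.1 to 42.3) had one within 1 kb. A knockdown call of either antibody lay within 1 kb of 1416 regions (38.9%, 37.3 to 40.5). By list, 30.4% had a knockdown anti-ETO peak within 1 kb, 29.2% a knockdown anti-Flag peak and 21.1% a control anti-ETO peak, and the control anti-ETO list was also the shortest. At the other end, 150 regions (4.12%) were over 100 kb from any region of another combination. No peak of any list, their own included, lay within 10 kb of 730 regions (20.1%, 18.8 to 21.4), and 203 of these isolated calls (27.8%, 24.7 to 31.2) were within 1 kb of a gene boundary.

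**Figure D2:**
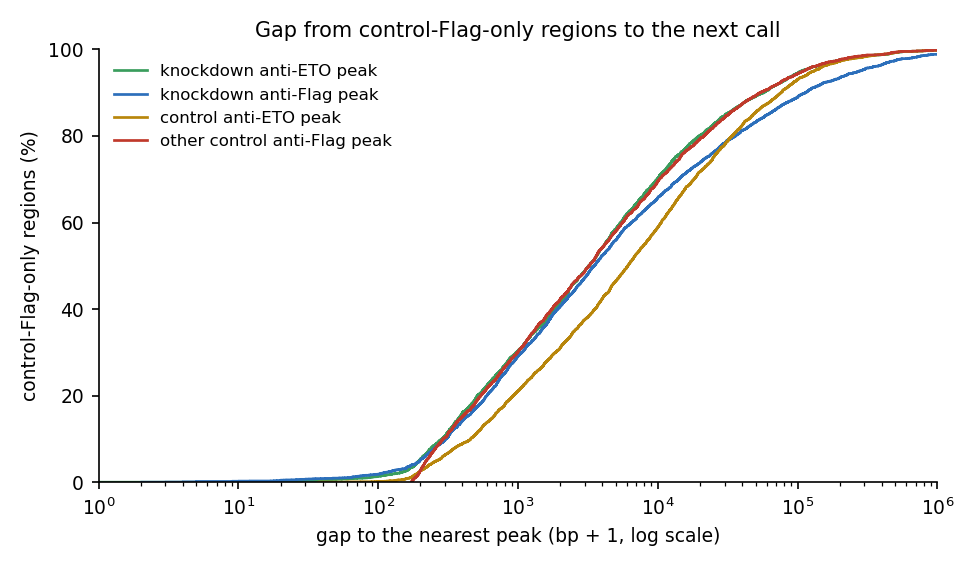
Cumulative percentage of the 3639 control-Flag-only regions against the gap to the nearest peak of each list (bp + 1, log scale). The median gap was 3200 bp to a knockdown anti-ETO peak, 3504 bp to a knockdown anti-Flag peak, 3233 bp to another control anti-Flag peak and 6093 bp to a control anti-ETO peak.

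Among the 1587 regions with any other region within 1 kb, the nearest was called in all 4 lists for 506 (31.9%), a class that made up 24.8% of all regions. It was a knockdown-Flag-only region for 281 (17.7%, against 22.3% of all regions) and another control-Flag-only region for 135 (8.51%, against 10.2%). Knockdown-Flag-only regions had a neighbour of their own kind in 42.5% of 3766 such cases, and knockdown-ETO-only regions in 17.5% of 1686. The nearest region was called in all 4 lists for 18.5% and 29.5% of these, in the same order. The own-kind share of control-Flag-only regions was thus near their 10.2% of all regions. Consecutive regions with no other call between them formed 311 runs of 2, 45 runs of 3 and 5 runs of 4, which held 777 regions in all.

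Of the 5 longest runs, 2 were compact. One spanned 31.1 kb on chromosome 1 from CD48 to SLAMF7, both SLAM-family receptors of blood cells, with regions at chr1:160708041-160708621, chr1:160711650-160712463 over the CD48 start, chr1:160726846-160727203 and chr1:160738956-160739161. The other spanned 29.7 kb on chromosome 11, with regions in NLRX1 (chr11:119175496-119175808), beside DRC12 (chr11:119196000-119196200 and chr11:119196850-119197305) and 1187 bp from CBL, a ubiquitin ligase that turns over receptor kinases (chr11:119204866-119205152). The remaining 3 runs stretched over 1297 kb (GPR84-AS1 to CD63) and 1303 kb (TESC to TAOK3) on chromosome 12 and 2042 kb (SESTD1 to MIR4437) on chromosome 2, with no call of any other list in between.

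In relation to genes, the regions lay between the knockdown Flag-only and the ETO-only classes. Of the 3639, 891 (24.5%, 23.1 to 25.9) were centred within 1 kb of a gene boundary, meaning the start or end of a gene, 1899 (52.2%) lay elsewhere inside a gene and 849 (23.3%, 21.99 to 24.7) outside genes. Over all merged regions these shares were 38.5%, 42.5% and 19.0%. A gene start listed by RefSeq lay within 1 kb for 576 of the 3532 regions on chromosomes with listed starts (16.3%, 15.1 to 17.6), and over all merged regions the share was 29.9%. Starts and promoters on chromosome 8, with 107 control-Flag-only regions, were not analysed here. The share was 4.69% for knockdown Flag only, 6.89% for Flag in both conditions only, 36.7% for knockdown ETO only and 51.7% for all 4 lists. The control-Flag-only share was 11.6 percentage points above knockdown Flag only (10.3 to 13.0), 9.42 above Flag in both conditions (7.45 to 11.2), and its difference from knockdown ETO only was -20.4 points (-22.4 to -18.4).

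**Figure D3:**
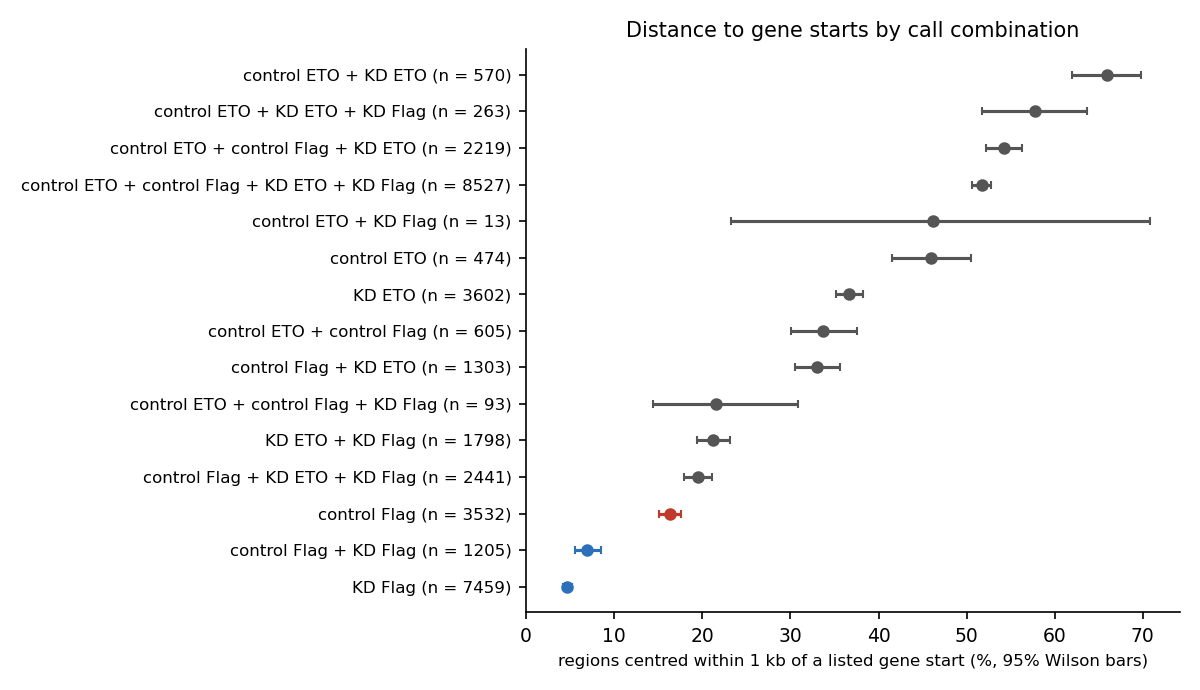
Percentage of regions centred within 1 kb of a listed gene start in each of the 15 call combinations, with 95% Wilson intervals and the number of regions tested. Control Flag alone (red) stood at 16.3%, above the other 2 combinations without an ETO call (blue, 4.69% and 6.89%) and below the 12 combinations with an ETO call (grey), of which the nearest was at 19.5%.

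The order of these 3 single-list classes was the same among narrow regions. Among regions of at most 359 bp, the upper quartile of control-Flag-only widths, a start lay within 1 kb for 17.8% of 2651 control-Flag-only regions (16.4 to 19.3), 5.05% of 5569 knockdown-Flag-only (4.50 to 5.65) and 38.4% of 2410 knockdown-ETO-only regions (36.5 to 40.3). This width limit was chosen after the data were seen. The median distance to a start was 7.15 kb for control Flag only, 10.1 kb for knockdown Flag only, 3.06 kb for knockdown ETO only and 0.869 kb for all 4 lists.

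Regions near a start kept closer company with ETO calls. Of the 576 near a start, 55.7% had a knockdown anti-ETO peak within 1 kb and 43.1% a control anti-ETO peak, against 27.01% and 17.2% of those elsewhere inside genes and 22.1% and 15.5% of those outside genes. For knockdown anti-Flag peaks the shares were 36.5%, 27.5% and 28.0%. The median gap to a region of another combination was 533 bp near a start, 1890 bp elsewhere inside genes and 2040 bp outside. Their median widths were 249.5, 282 and 274 bp. Regions with an ETO call were themselves frequent near starts, as the shares above show, and their part in the shorter gaps there was not tested.

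The share of regions on gene-dense chromosomes was close to that of the sites called in all 4 lists and below that of the other Flag-only classes. Chromosomes 19, 17, 11 and 16, the 4 densest in protein-coding genes, held 1268 regions (34.8%, 33.3 to 36.4), against 38.96% of all merged regions (38.5 to 39.5). Regions called in all 4 lists had 34.1% there, a difference of 0.71 percentage points (-1.12 to 2.55). Knockdown-Flag-only regions had 55.0% there and Flag-in-both regions 56.1%, so that control Flag only minus knockdown Flag only was -20.2 points (-22.1 to -18.3). Knockdown-ETO-only regions had 27.3%, so that control Flag only minus knockdown ETO only was 7.503 points (5.39 to 9.61). The number of genes within 500 kb had a median of 17 around control-Flag-only regions, 29 around knockdown-Flag-only, 31 around Flag-in-both, 15 around knockdown-ETO-only and 18 around regions called in all 4 lists.

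The chromosomes with the highest counts were 19 (422 regions), 1 (396) and 17 (376). Of all merged regions there, control-Flag-only regions made up 9.08% on chromosome 19, 11.3% on 1 and 9.66% on 17, against 10.2% overall. Of the 11584 regions called by Flag in a single condition and by nothing else, 31.4% (30.6 to 32.3) were control calls. This control share was 22.6% on chromosome 19, 23.6% on 17, 19.6% on 11 and 23.9% on 16. The lowest value was 18.0% (15.2 to 21.3) on chromosome 8, with 107 control against 486 knockdown regions, and the highest 68.3% (55.8 to 78.7) on chromosome 13, with 41 against 19. Control-Flag-only regions outnumbered knockdown-Flag-only ones on 7 of 23 chromosomes (2, 5, 7, 10, 13, 18 and X), by 675 to 470 in sum. On 5, 7, 10 and X the interval of the control share held 50%, and on 2, 13 and 18 it lay above 50%.

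**Figure D4:**
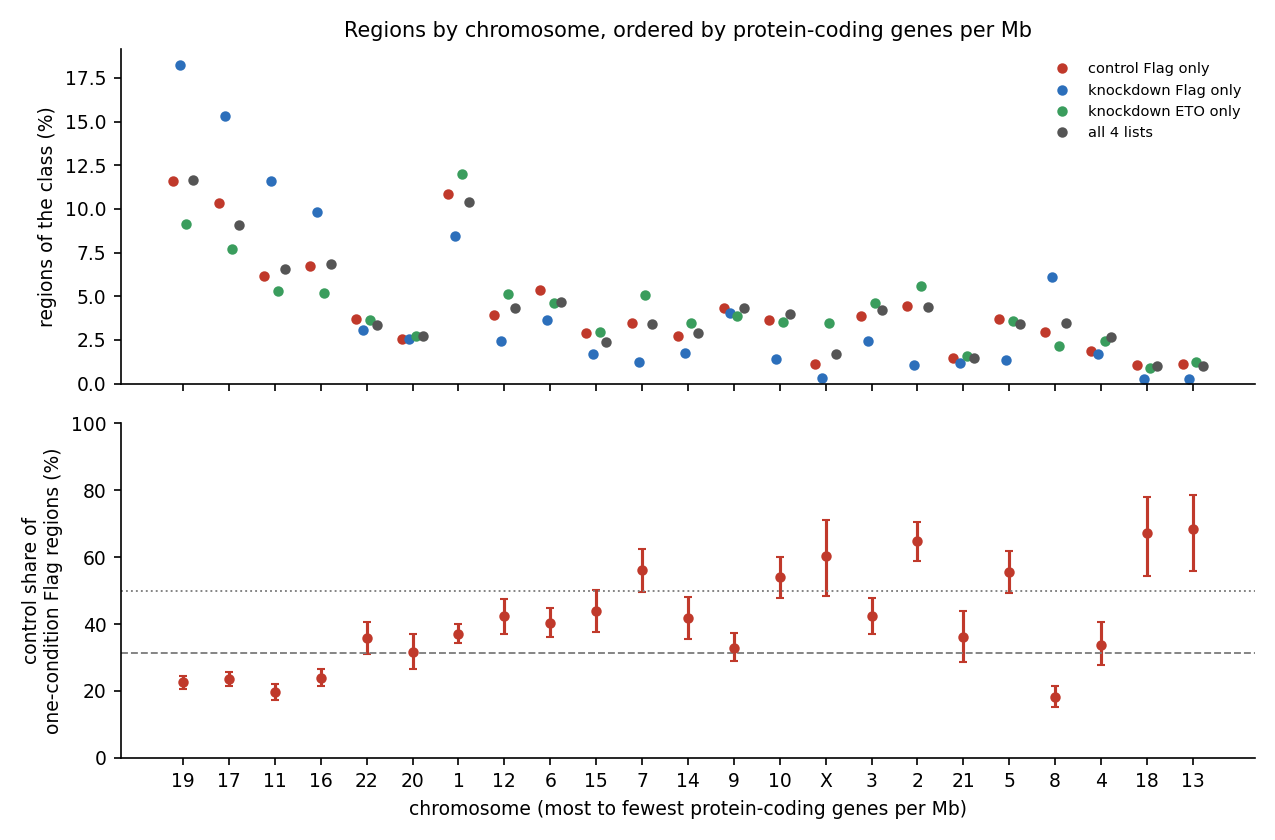
Top, percentage of the regions of 4 classes on each chromosome, ordered from most to fewest protein-coding genes per Mb. Bottom, control-Flag-only regions as a percentage of control-Flag-only plus knockdown-Flag-only regions, with 95% Wilson intervals, the genome-wide 31.4% (dashed) and 50% (dotted); the values ran from 18.0% on chromosome 8 to 68.3% on chromosome 13.

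By genes, 3403 of 19974 protein-coding genes (17.0%) had a control-Flag-only region in the body or within 10 kb, against 11668 (58.4%) with a region of any kind. Most had a single one: 2591 genes had 1, 589 had 2, 153 had 3, 47 had 4, 20 had 5 and 3 had 6. For 301 of the 3403 genes (8.85%) it was the only call of any list. The median gene length was 24.2 kb both for the 3403 genes and for all protein-coding genes.

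The genes with 6 regions were GSE1 (of 72 regions of any kind), MISP (of 22) and PRAM1 (of 15). GSE1 is part of histone deacetylase corepressor complexes, MISP is an actin-binding protein that positions the mitotic spindle, and PRAM1 is an adaptor protein of granulocytes. In GSE1, a gene of 507 kb, all 6 lay in the body, among 22 knockdown-Flag-only regions and 16 called in all 4 lists. MISP had 2 of its 6 in the body. PRAM1 is 12.6 kb long and had 1 of its 6 in the body, with 5 regions called in all 4 lists nearby.

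The 20 genes with 5 regions were tied, and those named here were picked for their known roles after the values were seen. PLCG2 and VAV1 carry signals from immune receptors, and their 5 stood among 17 and 41 regions of any kind. RASSF5, a Ras effector, had 5 of 12, and MSI2, an RNA-binding regulator of blood stem cells, 5 of 13. BCR had 5 of 12 and the histone gene H2BC12 5 of 10. All 5 lay in the body at PLCG2, RASSF5 and MSI2, whereas 3 did at VAV1, 3 at H2BC12 and 2 at BCR, the rest being within 10 kb. At RASSF5, BCR and H2BC12 no region was called by knockdown Flag only, whereas VAV1 had 14 of that kind.

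The 12 lists of genes with known links to AML1-ETO, myeloid cells or leukaemia held 141 genes, of which 48 (34.0%) had a control-Flag-only region in the body or within 10 kb, against 17.0% of all protein-coding genes. The listed genes were longer (median 41.5 kb against 24.2 kb) and more often had a region of any kind (120 of 141, 85.1%, against 58.4%). Among genes with any region, 40% of the listed and 29.2% of all protein-coding genes had a control-Flag-only one. Counted by regions, 66 of the 588 at listed genes were control-Flag-only (11.2%), against 10.2% over all merged regions. The control-Flag-only share of the regions at listed genes was thus close to the background. Part of each count comes from neighbouring genes, because the 10 kb flank reaches into them.

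**Figure D5:**
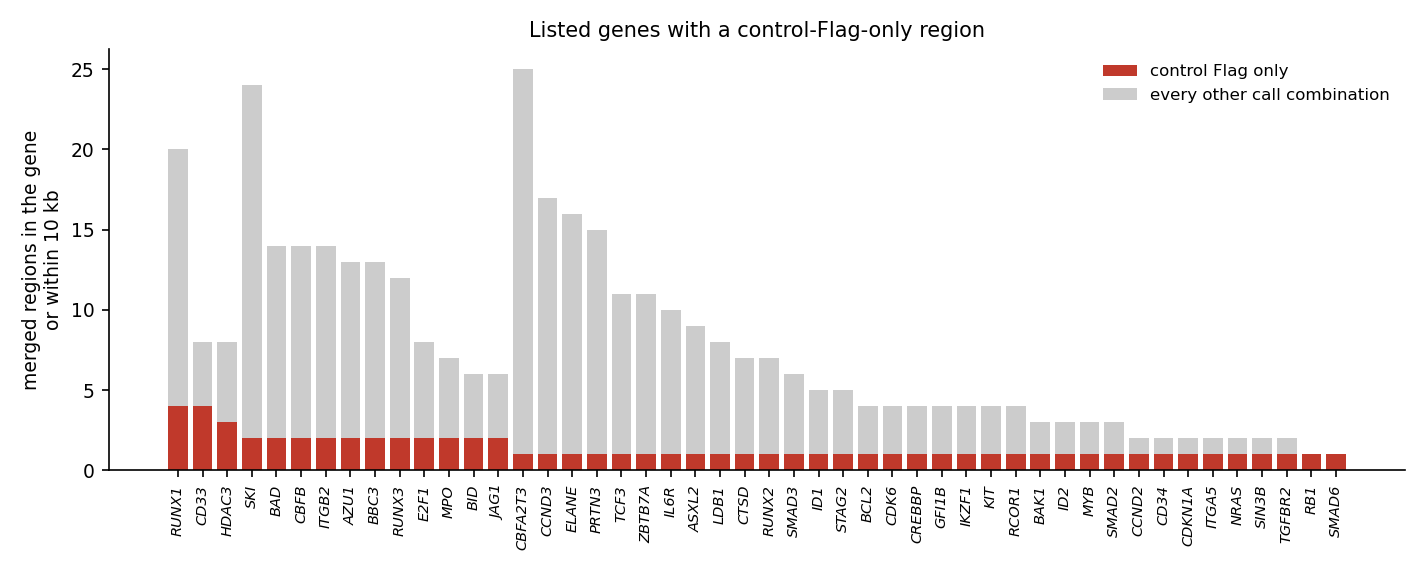
Number of merged regions in the body or within 10 kb of each of the 48 listed genes with a control-Flag-only region, split into control-Flag-only (red) and every other call combination (grey). RUNX1 and CD33 had 4 control-Flag-only regions each, and at RB1 and SMAD6 the only region was control-Flag-only.

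The list of genes linked to AML1-ETO or to myeloid cells had 12 of 84 regions (14.3%) at 7 of 20 genes. Of these, RUNX1, MPO, KIT, CCND2, CD34 and ID1 are described with the lists they share. JAG1, a Notch ligand, had 2 of 6, 1 in the gene (chr20:10651340-10651618) and 1 upstream (chr20:10676549-10676874).

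In the RUNX and ETO family, 5 of 7 genes had control-Flag-only regions, 10 of their 80 regions (12.5%). RUNX1, whose Runt domain supplies the DNA contact of the fusion, had 4 of 20. They were chr21:34893501-34893693, chr21:35030647-35030819 and chr21:35040179-35040376 inside the gene and chr21:35055449-35055623 at 6147 bp from it, each 173 to 198 bp wide. The first lay 668 bp from a control anti-ETO peak and the other 3 were at least 1707 bp from any peak of the other 3 lists. RUNX3, the paralogue prominent in lymphocytes, had 2 of 12, and one of these (chr1:24926380-24926590) was 46 bp from a knockdown anti-Flag peak. CBFB, the partner that stabilises Runt domains on DNA, had 2 of 14, both in the gene. RUNX2 had 1 of 7 and the ETO paralogue CBFA2T3 1 of 25.

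Among 14 genes for partners in the AML1-ETO complex, 3 had 1 region each out of 55 regions at the list (5.45%). They were the E-protein gene TCF3 (chr19:1611180-1611350), the bridging factor LDB1 (chr10:102116454-102116644) and the acetyltransferase gene CREBBP, where the region lay beyond the gene's end. Corepressor genes had 5 of 36 (13.9%) at 3 of 11 genes. HDAC3, the deacetylase of the NCoR complex, had 3 of 8, 1 in the gene (chr5:141623514-141623931) and 2 in the neighbouring DIAPH1. RCOR1 (CoREST) had 1 of 4 and SIN3B 1 of 2, the latter outside the gene. TBL1XR1 had none.

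Myeloid transcription factor genes had 3 of 49 regions (6.12%). MYB, a driver of progenitor growth, had 1 of 3 (chr6:135183784-135183993), IKZF1 (Ikaros) 1 of 4 (chr7:50306551-50306813), both inside the gene, and GFI1B 1 of 4, at 9813 bp from the gene. Granule and lysosome genes had 6 of 49 (12.2%), at 5 of 10 genes. ELANE, the neutrophil elastase gene, had 1 of 16 in its body (chr19:854136-854635, 500 bp), which also counted for its neighbour PRTN3 and lay 253 bp from a knockdown anti-Flag peak. AZU1 had 2 of 13, both in the neighbouring PLPPR3. MPO (myeloperoxidase) had 2 of 7 and CTSD 1 of 7, all outside the genes.

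Growth factor receptor genes had 2 of 38 regions (5.26%), 1 of 4 in KIT (chr4:54677408-54677825), the stem cell factor receptor, and 1 of 10 in IL6R (chr1:154453386-154453607). Stem cell and adhesion genes had 8 of 36 (22.2%) at 4 of 12 genes. CD33, a sialic acid receptor of myeloid cells, gave 4 of the 8: chr19:51224311-51224489, chr19:51226696-51226994 and chr19:51227493-51227720 in the gene and chr19:51243277-51243582 downstream. The 3 in the gene had a knockdown anti-ETO peak at 724 to 2034 bp and the next knockdown anti-Flag peak at 18220 to 20082 bp. ITGB2, the beta chain of leukocyte integrins, had 2 of 14, and ITGA5 1 of 2, outside the gene. CD34, the progenitor surface marker, had 1 of 2 (chr1:207889927-207890326), 205 bp from peaks of anti-ETO in both conditions and 73006 bp from the next knockdown anti-Flag peak.

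Cell cycle genes had 7 of 51 regions (13.7%) at 6 of 12 genes. Besides CDKN1A, shown above, these were E2F1 (2 of 8, 1 of them in the gene at chr20:33675365-33675537), CCND3 (1 of 17), CDK6 (1 of 4), CCND2 (1 of 2) and RB1. At RB1, the retinoblastoma gene, the control-Flag-only region (chr13:48303296-48303621) was the only region of any list. It lay upstream of the gene, in the divergent transcript RB1-DT, and 188583 bp from the nearest peak of the other 3 lists. CDKN1A likewise had only 1 further region within 10 kb.

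In the TGF-beta and SMAD pathway, which carries signals of the TGF-beta and BMP families to the nucleus, 7 of 18 genes had 8 of 79 regions (10.1%). TGFBR2, the type II receptor, had 1 of 2, upstream of the gene (chr3:30604360-30604602). Among signal carriers, SMAD3 had 1 of 6 in the gene (chr15:67103259-67103592) and SMAD2 1 of 3 upstream. SMAD6, an inhibitory SMAD, had its only region of any list 184 bp upstream of the gene (chr15:66701685-66702052), 28095 bp from the nearest knockdown anti-ETO peak. The corepressor gene SKI had 2 of 24, and the target genes ID1 and ID2, inhibitors of E proteins, 1 of 5 in the gene (chr20:31606067-31606381) and 1 of 3.

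BCL2 family genes, which set the threshold of apoptosis, had 8 of 53 regions (15.1%) at 5 of 10 genes. BCL2 itself, which blocks apoptosis, had 1 of 4 (chr18:63317202-63317446). The effector gene BAK1 had 1 of 3, and the BH3-only genes BID 2 of 6, BAD 2 of 14 and BBC3 (PUMA) 2 of 13. Of these 7, only the BID region shown above lay in the gene. Genes mutated in t(8;21) leukaemia had 6 of 48 (12.5%) at 6 of 17 genes, among them NRAS (1 of 2, upstream), ASXL2 (1 of 9), the cohesin gene STAG2 (1 of 5, chrX:123963663-123964012) and ZBTB7A (1 of 11, outside the gene). Over the 48 listed genes, 29 had such a region inside the body, 20.6% of the 141, against 9.01% of all protein-coding genes.

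The regions also overlapped 4 microRNA hairpins of the 1562 in the RefSeq table, those of MIR484 and MIR422A only in part. No count for other call combinations was set beside it, so the number is a description only. The mature forms are shown because their genes meet a control-only call. The seed, bases 2 to 8, is in capitals.
hsa-miR-484: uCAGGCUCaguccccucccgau
hsa-miR-422a: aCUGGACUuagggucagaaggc
hsa-miR-4437: uGGGCUCAggguacaaagguu
hsa-miR-6773-3p: aCUGUCACuucucugcccauag
hsa-miR-6773-5p: uUGGGCCCaggaguaaacaggau
No seed was shared among the 5 mature forms. MIR484 was met by chr16:15643335-15643547, with a region of another combination 239 bp away, and MIR422A by chr15:63870813-63870995, with the next at 20220 bp. MIR4437 lay in one of the sparse runs above (chr2:181305591-181305767), 150849 bp from the next, and MIR6773 under chr16:68233309-68233647, 3523 bp from the next. At MIR130A, the gene of the microRNA that was knocked down (chr11:57641198-57641286), the nearest control-Flag-only region was 161 kb away. The nearest regions of any kind there were at 15.97 kb, called by all lists but control anti-ETO, and at 25.4 kb, called in all 4 lists.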

How the data were processed

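CUT&RUN peak positions were analysed. The deposited files are interval lists that the authors made, with chromosome, start and end as positions and no score or other value. Per the submitters' processing notes, fastp 0.19.5, Bowtie2 2.3.5, MACS2 2.2.5 and HOMER 4.8 were used with the builds hg38 and sacCer3; the role of each, the peak threshold, the use of IgG and the handling of replicates are not given in the sources used here. Per the labels, libraries were planned at 40 M reads of 75 bp, from fragments of 150 to 400 bp. Looser peak calling or more reads in any of the lists would change which regions are control-Flag-only.

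The 4 single-antibody lists were merged in Python 3.11.15 (pandas 2.3.3, numpy 2.4.6), and touching intervals stayed apart. bedtools 2.31.1 also found 3639 regions. That count was among 10 checks, of which 10 passed, and the others used made-up intervals or a made-up sequence with known answers. None of the regions overlapped a peak of the authors' 5 derived two-antibody lists. This follows from the choice, because those lists need a call of both antibodies. Genes, starts and sequences came from RefSeq tables of GRCh38.p14, the build of hg38, and all starts are those listed there. Shares carry 95% Wilson intervals. Positions count from 1.

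Members and lists were chosen with earlier results of these data known. Named were the 10 widest regions, the 3 just inside and the 3 just outside the threshold, the longest runs, listed genes with such a region, the genes with the most regions, and covered promoters. The planned motif and base composition of whole regions needs a genome sequence, which was not used here, and promoter windows took its place. A gene of the corepressor list is not reported here.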

Additional observations from a re-analysis of the deposited data

How the results depend on the processing

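Of 74 alternative values over 9 results, 28 moved beyond the counting interval, or by over 1.5 times for a count, and none is a test. Keeping chromosomes 1 to 22 and X only left all 9 values unchanged. All 3639 regions lie on these chromosomes, so these values say nothing of stability. With an overlap of at least 100 bp required, the share with a region of another call combination within 1 kb was 45.5%, and with gaps of up to 100 bp joined 38.7%. With gaps of up to 500 bp joined there were 2535 regions at 2446 genes, with a median width of 285 bp. Of these regions, 20.5% were near a gene boundary, 24.7% outside genes and 16.6% within 1 kb of another combination. Keeping the wider 50% of each list gave 1692 regions of 505.5 bp at 1883 genes, 29.6% near a boundary and 24.8% near another combination. With all 4 lists at the length of the shortest there were 1601 regions of 425 bp at 1692 genes, 22.9% near a boundary, 25.9% outside genes, 38.0% on the 4 gene-dense chromosomes and 31.5% near another combination. With the knockdown lists at control lengths there were 4657 regions at 4155 genes, the median width was 282 bp and 28.1% were near a boundary. A boundary distance of 500 or 2500 bp gave 14.9% or 44.6%, protein-coding genes alone 34.6% outside genes, a distance of 5 kb 68.0% near another combination, and a flank of 0 or 50 kb 1800 or 6225 genes. The RUNX core was in the 100 central bases of 2.86% of the 105 covered promoter windows. A shorter stretch has room for fewer matches, and the share over all promoters was not computed for these 100 bases. Among regions up to 359 bp, chosen after seeing the data, 25.9% were near a boundary.

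In the 7 alternatives that changed the lists or their merging, the boundary share was above that of knockdown-Flag-only and below that of knockdown-ETO-only regions. The limit to chromosomes 1 to 22 and X is among the 7 and is no separate check. The list shortening ranked peaks by width, since the lists carry no score, and the cause of the moves was not tested. Composition of whole regions was not run. No paired analysis was possible because the lists carry no replicate, and for the same reason leaving out a replicate was not run. Depth behind single calls is unknown.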
